A study of Mus musculus with 115 samples.

Results

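Adipokines are proteins that fat tissue secretes into the blood. The genes of 7 of them were followed here in inguinal adipose tissue, the fat pad of the groin, and in liver of the same study: Lep, Adipoq, Retn, Rbp4, Apln, Cfd and Nampt. They were taken as a list of names, and every probe of the adipose array that carries such a name was used. Of the 7 genes, 5 had a probe under the current symbol and 2 under an older one, namely Adipoq under Acdc and Nampt under Pbef1. The array holds 18120 gene symbols on 25697 probes, and the 7 genes have 8 probes among them. The Apln probe reached detection on 0 of 55 adipose arrays and the probe ILMN_1232209 of Nampt on 1. The remaining 6 probes, 1 for each of 6 genes, were tested together with all 14636 detected adipose probes.

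The mice were FCG mice, a model that separates gonad type from sex chromosomes, on C57BL/6J. Their Y chromosome lacks Sry, the gene that directs testis formation, and a Sry transgene can be inherited apart from it. XX and XY- mice lack Sry and form ovaries, and they are called the ovary line here. XXSry and XY-Sry mice carry the transgene and form testes, and they are called the testis line. Every mouse, controls included, was gonadectomised at 75 days of age, so no group kept its own gonads when tissue was taken. Each received a Silastic capsule at that operation, which was blank (B) or held testosterone (T, 5 mM) or 17beta-estradiol (E, 50 µg), and tissue was frozen 3 weeks later. The 12 groups of genotype and treatment held 3 to 5 adipose arrays each, with 3 in XX B, 4 in XX T, in XY-Sry B and in XXSry E, and 5 in each of the remaining 8. In liver each group held 5 arrays. The labels do not state that each array is a separate mouse, so p-values measure the spread between these samples. In XX E replicate 1 the label fields name different hormones, and it was kept as estradiol from its title.

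Leptin, the product of Lep, reports fat stores to the brain and restrains feeding. Adiponectin (Adipoq) raises insulin sensitivity, and resistin (Retn) opposes insulin action in mice. Retinol-binding protein 4 (Rbp4) carries retinol in plasma and is made mainly by liver and also by fat. Complement factor D (Cfd, adipsin) is the serine protease that starts the alternative complement pathway. Nampt makes the NAD precursor nicotinamide mononucleotide and is also found outside cells, where it is called visfatin. Apelin (Apln) is a peptide ligand of the receptor Aplnr. Sex steroids are known to alter adipose mass and adipokine secretion.

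The sequences upstream of Lep, Rbp4 and Retn are shown because these 3 genes were called lower after estradiol. Each stretch holds the 250 bases before a RefSeq start site of assembly GRCm38.p6, written 5′ to 3′ on the strand of the gene. Lep lies on the plus strand at chr6:29059971-29060220, and Retn on the plus strand at chr8:3655520-3655769. Rbp4 is on the minus strand with start sites of its own at chr19:38125322-38125571 and chr19:38124812-38125061. Capitals mark matches, on either strand, to the C/EBP-like motif TTGCNNAA, to TATAA or to GGGCGG, where overlapping matches are joined.
Lep: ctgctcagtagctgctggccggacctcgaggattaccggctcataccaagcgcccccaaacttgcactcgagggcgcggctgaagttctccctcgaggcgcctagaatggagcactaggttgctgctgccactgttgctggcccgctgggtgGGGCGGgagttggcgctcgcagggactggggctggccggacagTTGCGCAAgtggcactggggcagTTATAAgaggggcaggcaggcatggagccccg
Rbp4 start 1: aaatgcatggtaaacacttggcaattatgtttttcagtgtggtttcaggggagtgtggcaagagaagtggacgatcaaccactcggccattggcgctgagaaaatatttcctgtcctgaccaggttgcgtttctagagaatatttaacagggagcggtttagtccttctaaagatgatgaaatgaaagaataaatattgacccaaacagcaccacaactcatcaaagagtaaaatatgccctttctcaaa
Rbp4 start 2: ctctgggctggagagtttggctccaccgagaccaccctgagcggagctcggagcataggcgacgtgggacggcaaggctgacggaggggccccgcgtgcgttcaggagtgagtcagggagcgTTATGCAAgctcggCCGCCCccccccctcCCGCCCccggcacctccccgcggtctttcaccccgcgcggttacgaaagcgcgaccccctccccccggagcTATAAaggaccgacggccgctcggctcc
Retn: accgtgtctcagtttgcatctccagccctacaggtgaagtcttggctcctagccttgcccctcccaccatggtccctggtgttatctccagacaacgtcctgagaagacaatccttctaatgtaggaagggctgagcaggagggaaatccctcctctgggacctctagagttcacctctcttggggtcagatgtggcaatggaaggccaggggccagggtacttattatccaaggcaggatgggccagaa
Lep and the second Rbp4 start each held all 3 of these motifs, and the first Rbp4 start and Retn held none. Among 32851 promoter windows of this length TTGCNNAA occurred in 9.56%, TATAA in 22.8% and GGGCGG in 32.7%. The full palindromic estrogen response element, the receptor core AGGTCA, the androgen receptor core AGAACA and the direct repeat of AGGTCA spaced by 1 base were searched in the same way. None of these was found in the windows shown, and their shares over all windows were 0.0639%, 14%, 16.1% and 0.0335%. These matches describe letters in a short window and nothing about binding.

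All values that follow are log2 levels after normalisation, and differences are log2 differences with their standard errors. The share of detected probes ran from 40.3% to 49.0% over the adipose arrays, and the highest signal of an array from 25999 to 41065. All 13 listed adipocyte marker genes were detected on at least some adipose arrays, and their summed signal per array ran from 43316 to 113209. The pieces of tissue also held other cells in unequal amounts. The summed signal of 9 skeletal muscle markers ran from 818 to 226159, that of 10 lymph node markers from 261 to 55539, and that of 6 liver markers from 162 to 98258. Of the mammary markers 11 of 12 were on the array, with Wap never detected. The arrays lay on 8 slides, of which slides 2 and 8 held both blank and estradiol arrays and slides 3 and 6 both blank and testosterone arrays.

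Over the 12 groups the order of the group means was clearest for Rbp4, which ran from 9.26 ± 0.89 (SD, n = 5) in XXSry B to 6.45 ± 0.50 (n = 5) in XX E. Of its 11 neighbouring pairs in that order 10 lay within the larger of their SDs, the exception being XXSry T at 8.37 and XX T at 7.70. The 4 lowest places were all held by estradiol groups. Lep ran from 13.59 ± 0.17 in XXSry E (n = 4) down to 11.72 ± 0.95 in XY- E (n = 5), so that estradiol groups stood at both ends. Retn ran from 7.74 ± 0.39 in XX B (n = 3) to 6.54 ± 0.73 in XY- B (n = 5). For Lep, Retn, Adipoq, Cfd and Nampt all 11 neighbouring pairs lay within their spread. The span from the highest to the lowest group mean was 0.47 for Adipoq and 0.28 for Cfd, against spreads within groups of 0.21 and 0.14. Nampt spanned 1.19, with a spread within groups of 0.77.

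**Figure D1:**
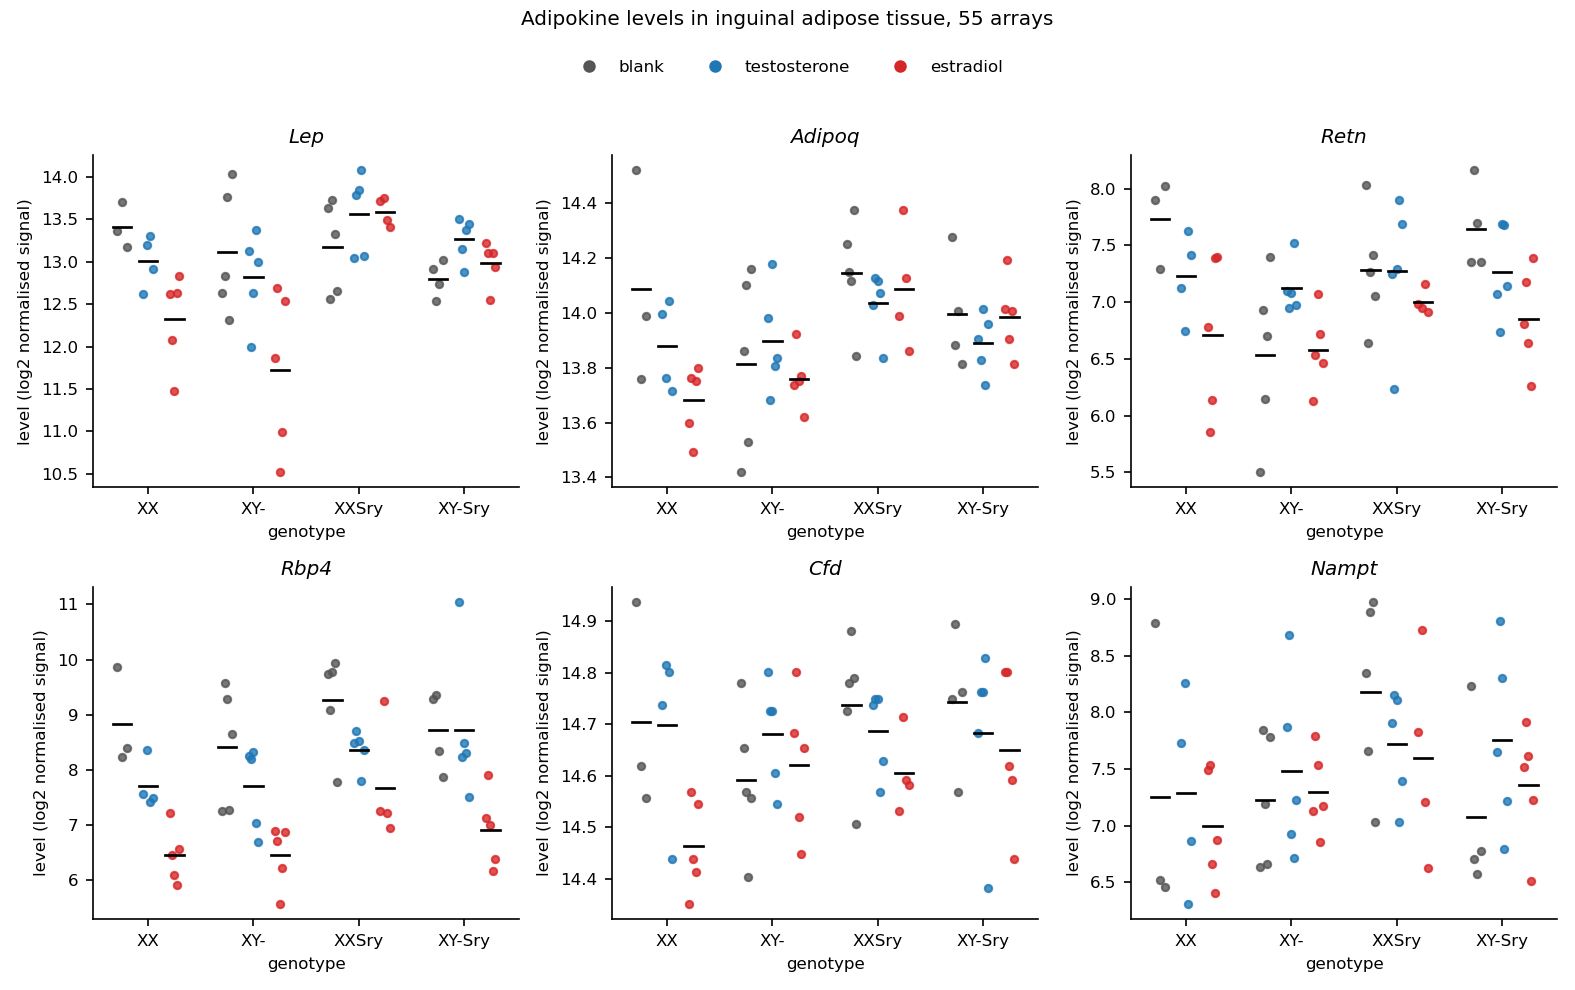
Log2 normalised signal of the 6 tested adipokines (vertical axis, a separate scale for each gene) in the 4 genotypes (horizontal axis), with a point for each of the 55 adipose arrays coloured by treatment and a black bar at each group mean. Rbp4 is lower after estradiol in every genotype, while Lep is lower after estradiol in XX and XY- and not in XXSry and XY-Sry.

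Averaged over genotypes, Rbp4, Retn and Lep were lower after estradiol than with the blank capsule. Of these only Rbp4 was lower in every genotype. Lep means were higher after estradiol in XXSry and XY-Sry, and the Retn mean was not lower in XY-. Rbp4 fell by 1.94 ± 0.27 on the log2 scale, a 3.83-fold lower signal, over the 19 estradiol and 17 blank arrays (limma, adjusted p = 4.1e-07). Retn fell by 0.51 ± 0.16 (adjusted p = 0.019) and Lep by 0.47 ± 0.17 (adjusted p = 0.045). With 3 of 6 probes called lower, the background was 10.1% of all tested probes called lower, and 20.5% called in either direction. The remaining probes missed the threshold: Adipoq differed by -0.13 ± 0.07 (adjusted p = 0.207), Cfd by -0.11 ± 0.05 (adjusted p = 0.163) and Nampt by -0.12 ± 0.24 (adjusted p = 0.791).

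Rbp4 was lower in each of the 4 genotypes. In XX mice the blank arrays read 9.87, 8.23 and 8.40 and the estradiol arrays 7.21, 6.46, 6.10, 5.91 and 6.57. In XY- mice the blank arrays read 7.26, 9.58, 9.28, 7.27 and 8.65 and the estradiol arrays 6.89, 6.70, 5.57, 6.22 and 6.87. Blank and estradiol arrays did not overlap in either genotype of the ovary line. In XXSry mice the blank arrays read 9.74, 9.09, 9.77, 9.95 and 7.77 and the estradiol arrays 7.25, 9.24, 7.21 and 6.95. In XY-Sry mice the blank arrays read 9.28, 9.36, 8.34 and 7.87 and the estradiol arrays 7.12, 7.90, 6.998, 6.17 and 6.39. The testis line overlapped through XXSry E replicate 2 at 9.24 and XY-Sry E replicate 2 at 7.90. Over all genotypes 17 of 19 estradiol arrays lay below the lowest blank array. The Rbp4 signal was too dim for detection on XX E replicate 4 and XY- E replicate 3, so the size of the fall is a low estimate there.

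Rbp4 differed by -2.17 ± 0.39 in the ovary line (adjusted p = 8.8e-05) and by -1.70 ± 0.38 in the testis line (adjusted p = 0.0017). Within the lines 2 of 6 probes were called lower in the ovary line and 1 in the testis line, beside 5.1% and 4.15% of all tested probes. The difference between the lines, 0.47 with a 95% interval from -0.62 to 1.57, did not pass the test (adjusted p = 0.999). Within slides, estradiol minus blank was -2.02 on slide 2 and -1.92 on slide 8, with 4 arrays of each treatment per slide. The call held in each of 55 fits without 1 array, where the difference ran from -2.07 to -1.81.

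Retn had a median of 7.35 over the blank arrays, with 5.50 as the lowest and 8.16 as the highest. The estradiol arrays had a median of 6.80 and ran from 5.85 to 7.40. The ranges overlapped, and 16 of 19 estradiol arrays lay below the blank median. The Retn means differed after estradiol by -1.03 in XX, by -0.28 in XXSry and by -0.79 in XY-Sry, while the XY- difference was 0.05, where the blank arrays were already low at 6.54 ± 0.73. In XX mice Retn read 7.90, 7.29 and 8.02 in blank and 6.78, 5.85, 6.14, 7.39 and 7.40 in estradiol arrays, which overlapped at the upper estradiol values. In XY- mice it read 5.50, 6.93, 6.14, 6.70 and 7.40 in blank and 6.13, 6.53, 7.07, 6.72 and 6.46 in estradiol arrays, and the lowest of these, XY- B replicate 1, was not above the detection limit. In the testis line the medians were 7.35 in blank and 6.95 in estradiol arrays. The 2 lines differed from blank by -0.49 ± 0.23 and -0.53 ± 0.23, ovary line first, and neither passed alone (adjusted p = 0.198 and 0.146). On slides 2 and 8 the differences were -0.57 and -0.66. With arrays centred on their medians in place of quantile normalisation, the Retn difference was -0.42 and the call was lost (adjusted p = 0.146).

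The estradiol effect on Lep depended on the gonad line. In the ovary line Lep fell by 1.24 ± 0.25, a 2.36-fold lower signal (adjusted p = 0.00040). In the testis line the difference was 0.30 ± 0.24, which did not pass the test (adjusted p = 0.545). The difference between the lines was 1.54 ± 0.34 (limma interaction, adjusted p = 0.0085), with a 95% interval from 0.84 to 2.23. Lep was the only called member in any of the 5 interactions, and the share of tested probes called in this interaction was 0.813%. In the others hardly any probe of the array was called: 0.0137% for testosterone by gonad line and 0% for each that involved sex chromosome.

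The single arrays show how far the groups parted. In XX mice the blank arrays read 13.36, 13.70 and 13.18 and the estradiol arrays 12.62, 12.07, 11.48, 12.63 and 12.84, with no overlap. In XY- mice the blank arrays read 12.63, 12.83, 13.76, 12.32 and 14.03 and the estradiol arrays 11.87, 12.70, 10.52, 10.99 and 12.54. These overlapped, with XY- E replicates 3 and 4 the lowest of the 55 arrays. In the XXSry genotype the blank arrays gave 13.63, 12.56, 13.73, 13.32 and 12.65 and the estradiol arrays 13.72, 13.76, 13.49 and 13.41. In the XY-Sry genotype they gave 12.91, 12.53, 12.74 and 13.02 for blank, and 13.22, 13.11, 12.55, 13.10 and 12.94 for estradiol. In the ovary line all 10 estradiol arrays lay below the blank median of 13.27, and 5 of them below the lowest blank array. In the testis line 1 of 9 lay below the blank median of 12.91.

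The same split appeared within slides. On slide 2 estradiol minus blank was -1.18 in the ovary line and 0.31 in the testis line, and on slide 8 it was -1.80 and 0.60, each from 2 arrays against 2. The interaction was called in each of 55 fits without 1 array, with values from 1.38 to 1.66. It was called with median centring (1.54, adjusted p = 0.047) and with slide as a fixed block (1.46, adjusted p = 0.011). The call of Lep over both lines together was less secure: it was lost in 19 of those 55 fits, with median centring (adjusted p = 0.069) and with slide as a fixed block (adjusted p = 0.128).

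**Figure D2:**
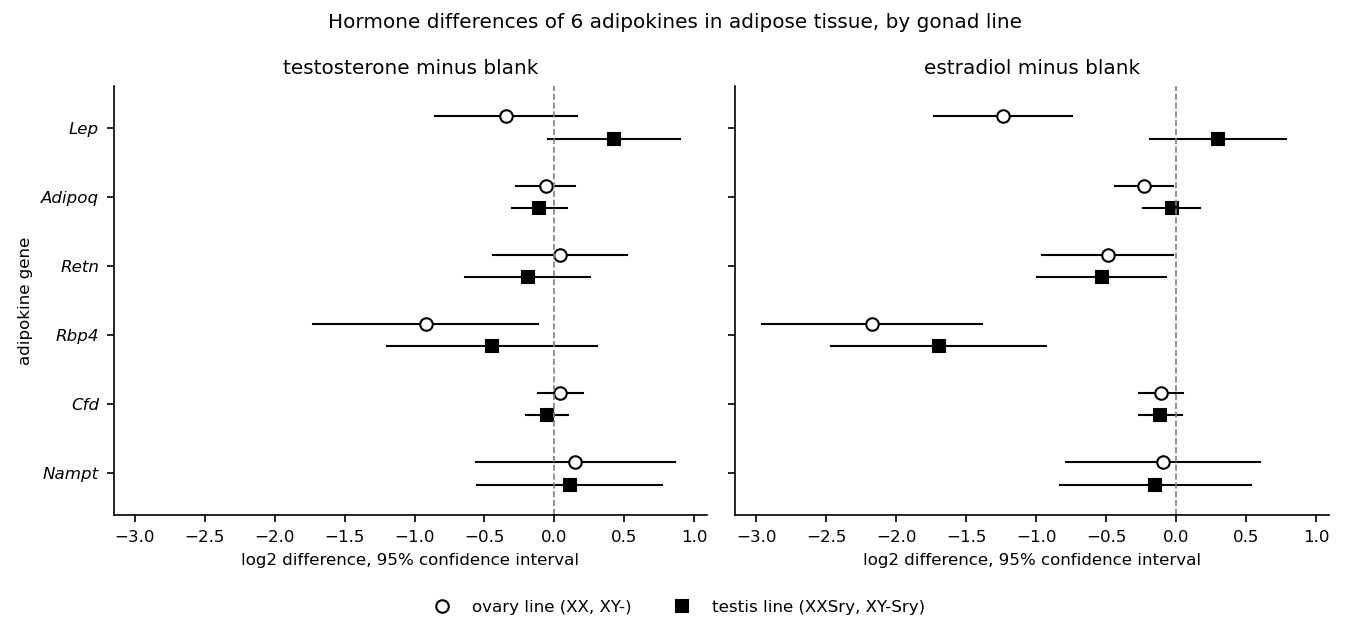
Log2 difference from the blank capsule (horizontal axis) with its 95% confidence interval for 6 adipokines (vertical axis) after testosterone, left, and estradiol, right, with open circles for the ovary line and filled squares for the testis line. After estradiol Lep lies at -1.24 in the ovary line and 0.30 in the testis line, and Rbp4 lies at -2.17 and -1.70.

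Markers of several cell types moved with estradiol, and in bulk samples a change in cell number and in RNA per cell cannot be told apart. Macrophage markers were called higher for 13 of 13 probes (median difference 1.14, all tested probes -0.02), and their summed signal had medians of 16508 in blank and 37736 in estradiol arrays. Preadipocyte and fibroblast markers were called higher for 6 of 10 probes, and endothelial markers lower for 4 of 7. Over all tested probes 10.4% were called higher and 10.1% lower. Skeletal muscle sums had medians of 129079 in blank and 23568 in estradiol arrays, with 0 of 12 probes called. In the ovary line these sums moved in opposite directions, with medians of 26383 in XX B and 165859 in XX E, and of 193787 in XY- B and 20045 in XY- E. Adipocyte markers were called lower for 9 of 17 probes (median -0.40), and the largest of those falls was Aqp7, the glycerol channel of adipocytes, at -1.17 ± 0.19. Their summed signal ran from 58025 to 113209 with a median of 95700 in blank arrays, and from 43316 to 97230 with a median of 69263 in estradiol arrays. With scores of macrophage and preadipocyte markers as covariates, the estradiol difference of Rbp4 was -1.44 (adjusted p = 0.012), that of Retn -0.07 (adjusted p = 0.874) and that of Lep -0.57 (adjusted p = 0.064). Within the lines the Rbp4 calls were lost in that fit, at -1.46 in the ovary line (adjusted p = 0.054) and -1.43 in the testis line (adjusted p = 0.075). With scores of skeletal muscle, lymph node and liver the pooled differences stayed called, at -2.10 for Rbp4, -0.54 for Retn and -0.62 for Lep, as they did with mammary epithelium added.

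For estradiol by gonad line no probe of the cell type marker lists was called, beside 0.813% of all tested probes. The absence of calls lies near that share. All tested probes had a median of 0.00046. The medians were 0.02 for 13 macrophage probes, 0.19 for 17 adipocyte probes and 0.46 for 10 preadipocyte and fibroblast probes. They were -1.16 for 12 lymph node probes, -0.64 for 10 mammary probes and -0.55 for 12 skeletal muscle probes, so that several lists lay further from 0 than all tested probes did. The interaction of Lep was 1.28 with scores of skeletal muscle, lymph node and liver as covariates (adjusted p = 0.022). It was 1.18 when mammary epithelium was added (adjusted p = 0.105) and 0.97 with macrophage and preadipocyte scores (adjusted p = 0.239). The fall of Lep in the ovary line was called in all 3 of these fits, from -1.26 to -1.06.

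**Figure D3:**
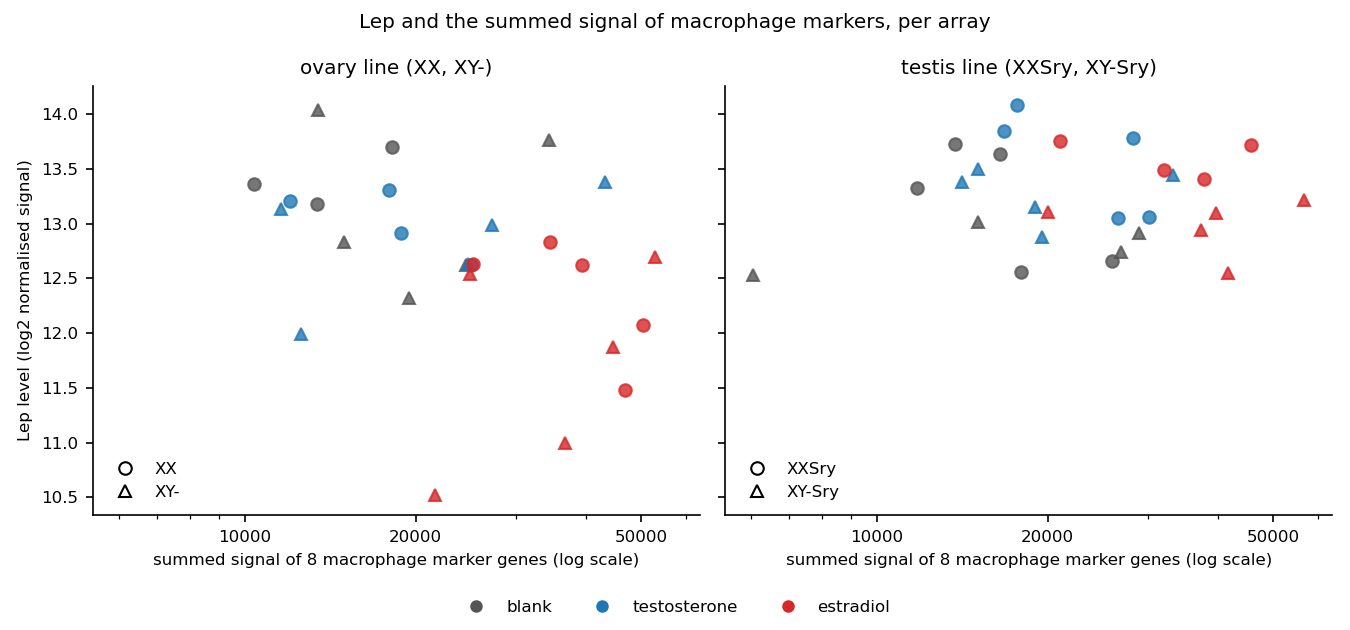
Lep level (vertical axis, log2 normalised signal) against the summed signal of 8 macrophage marker genes (horizontal axis, log scale) for each adipose array, with the ovary line left and the testis line right, colours for treatment and shapes for genotype. Estradiol arrays lie to the right in both lines, with median sums of 38001 in the ovary line and 37736 in the testis line, and low Lep values appear in the ovary line.

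Testosterone gave no called difference from blank among the 6 probes (limma), where 4.75% of all tested probes were called, and 1 of the 6 had an unadjusted p under 0.05. That was Rbp4, at -0.68 ± 0.27 (adjusted p = 0.152), with 18 of 19 testosterone arrays below the blank median of 9.09. Testosterone arrays of XX read 7.56, 8.35, 7.42 and 7.48, those of XY- 8.26, 8.19, 8.33, 7.03 and 6.68, and those of XXSry 8.48, 8.70, 8.51, 7.79 and 8.36. In these 3 genotypes the testosterone means, 7.70, 7.70 and 8.37, lay between the blank and the estradiol means. In XY-Sry T replicate 1 Rbp4 read 11.04, while the other 4 arrays of that group read 8.23, 8.49, 8.30 and 7.50. The same array had a summed liver marker signal of 98258, where the next highest array, XX T replicate 4, had 17550. Without it the testosterone difference of Rbp4 was -0.83 and passed (adjusted p = 0.036). With scores of skeletal muscle, lymph node and liver as covariates it was -0.98 (adjusted p = 0.0035). On slide 3 the difference was -1.33 and on slide 6 it was -0.55. Both slides held testosterone arrays of every genotype, but slide 3 had blank arrays of XXSry and XY- only. Slide 6 had no blank array of XXSry, so genotype enters both values.

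Lep after testosterone stood at 0.04 ± 0.17 over both lines, with -0.35 ± 0.25 in the ovary line and 0.43 ± 0.23 in the testis line. The testosterone arrays read 12.62, 13.20, 13.31 and 12.91 in XX and 13.13, 11.99, 12.63, 13.38 and 12.99 in XY- mice. They read 13.05, 13.78, 13.85, 14.08 and 13.06 in XXSry and 13.50, 13.15, 12.88, 13.38 and 13.45 in XY-Sry mice. In the testis line 3 of 10 lay above the highest blank array, and in the ovary line 1 of 9 lay below the lowest. Within the lines 0 of 6 probes were called, beside 0.417% of all tested probes in the ovary line and 3.55% in the testis line, and 1 and 0 of the 6 had an unadjusted p under 0.05. The difference between the lines, 0.77 ± 0.34 with a 95% interval from 0.08 to 1.47, had an unadjusted p of 0.030 (limma interaction). It did not pass (adjusted p = 0.9997), where 0.0137% of all tested probes were called. Adipoq, Retn, Cfd and Nampt differed from blank by -0.09 ± 0.07, -0.08 ± 0.16, -0.007 ± 0.05 and 0.13 ± 0.24. Their 95% intervals reached at most 0.61 in either direction.

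**Figure D4:**
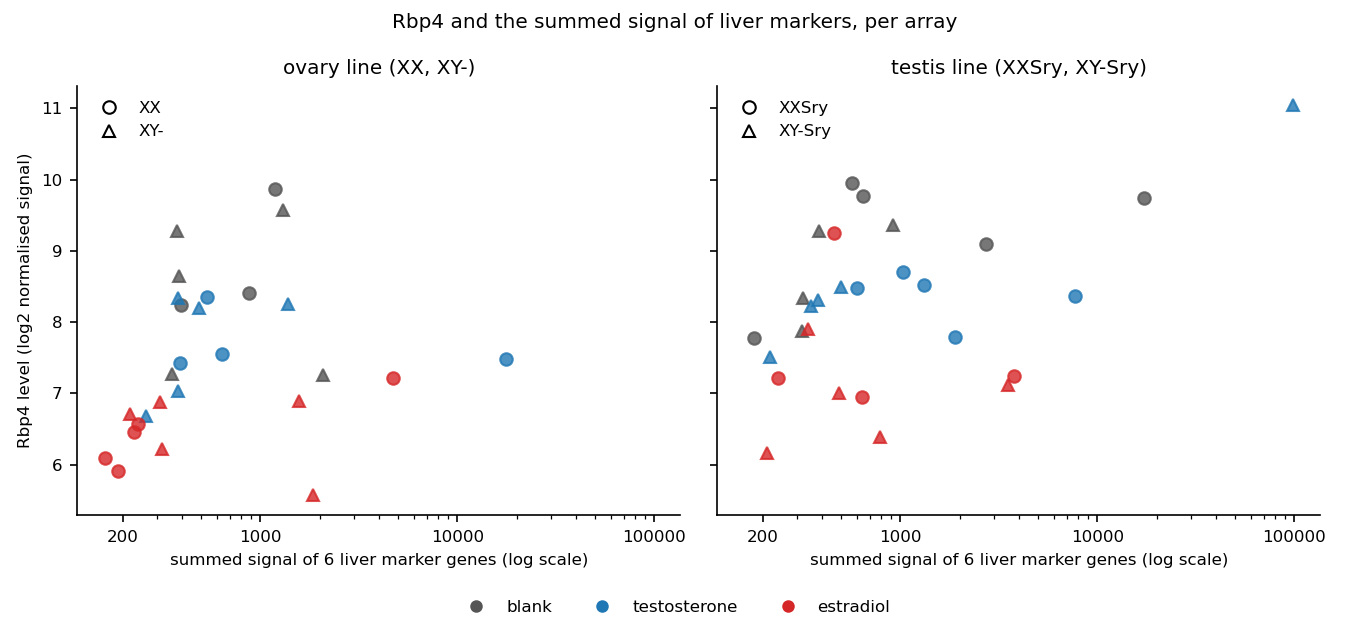
Rbp4 level (vertical axis, log2 normalised signal) against the summed signal of 6 liver marker genes (horizontal axis, log scale) for each adipose array, with the ovary line left and the testis line right, colours for treatment and shapes for genotype. XY-Sry T replicate 1 lies alone at the upper right with 98258 and 11.04, and the estradiol arrays, with liver marker sums from 162 to 4689, lie low except XXSry E replicate 2 at 9.24 with a sum of 459.

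The hormones set against each other share no control arrays. Testosterone arrays were higher than estradiol arrays for Rbp4 by 1.25 ± 0.26 (limma, adjusted p = 0.00045), for Lep by 0.51 ± 0.17 (adjusted p = 0.026) and for Retn by 0.44 ± 0.16 (adjusted p = 0.047). These 3 of 6 stand beside 7.76% of all tested probes called higher. Rbp4 and Retn means were higher with testosterone in all 4 genotypes, and Lep means in 3. On slides 1, 5 and 7, which held both hormones, the Rbp4 difference was 2.22, 1.72 and 0.81. Slides 5 and 7 held every genotype under both hormones. Slide 1 held XXSry only with testosterone and XX only with estradiol, so genotype enters its value. The Retn call was lost in 28 of 55 fits without 1 array and in 9 of 12 alternatives. Among these were slide as a fixed block (adjusted p = 0.072), slide as a random block (adjusted p = 0.057), median centring (adjusted p = 0.277) and XX E replicate 1 left out (adjusted p = 0.051) or taken as testosterone (adjusted p = 0.061). In the fit with macrophage and preadipocyte scores all 3 calls were lost, with Rbp4 at 0.83 (adjusted p = 0.133), Lep at 0.47 (adjusted p = 0.110) and Retn at 0.05 (adjusted p = 0.913).

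Between the gonad lines, averaged over treatments, Lep and Rbp4 were higher in mice with Sry. Lep was higher by 0.50 ± 0.14 (limma, adjusted p = 0.016) and Rbp4 by 0.68 ± 0.22 (adjusted p = 0.047). These 2 of 6 stand beside 2.63% of all tested probes called higher with Sry and 7.34% called in either direction. Rbp4 means were higher with Sry in all 6 matched pairs of groups and Lep means in 4 of 6. In XX B against XXSry B and in XY- B against XY-Sry B the Lep means were 13.41 against 13.18 and 13.12 against 12.80, so blank-treated mice of the ovary line were not lower. Adipoq was higher with Sry by 0.17 ± 0.06 and missed the threshold (adjusted p = 0.068), but passed with slide as a fixed block (0.17, adjusted p = 0.011) or a random block (0.17, adjusted p = 0.022) and in 6 of 12 alternatives in all. Retn, Cfd and Nampt differed by 0.23 ± 0.13, 0.06 ± 0.04 and 0.36 ± 0.19, and with slide as a fixed block Nampt passed (0.33, adjusted p = 0.048).

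Mammary epithelium markers were called lower with Sry for 10 of 10 probes, beside 4.71% of all tested probes. The median difference of these markers was -3.52, against 0.03 over all tested probes. The summed signal of the mammary markers ran from 4699 to 31497 in the ovary line and from 209 to 6282 in the testis line. With mammary scores among the covariates the Lep difference was 0.13 (adjusted p = 0.959) and that of Rbp4 -0.0029 (adjusted p = 0.999), so gonad line and mammary content cannot be told apart here. The Rbp4 call was also lost in 31 of 55 fits without 1 array, and the difference was 0.58 without XY-Sry T replicate 1. Adipocyte markers were called higher with Sry for 5 of 17 probes, beside 2.63% of all tested probes. Among them was Lipe, hormone-sensitive lipase, by 0.50 ± 0.15.

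Sex chromosome complement gave no call among the 6 probes (limma), where 0.137% of all tested probes were called, and 1 probe had an unadjusted p under 0.05. That was Lep, higher in XX than in XY mice by 0.40 ± 0.14 (adjusted p = 0.297), with the XX mean above the XY mean in all 6 matched pairs of groups. XX arrays had a median Lep level of 13.26 over 26 arrays and XY arrays 12.91 over 29. Rbp4 differed by 0.23 ± 0.22, Retn by 0.20 ± 0.13, Nampt by 0.14 ± 0.19, Adipoq by 0.10 ± 0.06 and Cfd by -0.01 ± 0.04.

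Adipoq and Cfd stayed within narrow bounds. Adipoq read 13.42 at its lowest and 14.52 at its highest over 55 arrays. Cfd read 14.35 to 14.94, and its deposited signal, 19228 to 37276, came close to the highest signals of the arrays, where a difference is compressed. Nampt ran from 6.31 to 8.97 and was detected on all 55 arrays. Its spread was wide within groups: XY-Sry B replicate 1 read 8.24, while the other 3 arrays of its group lay between 6.58 and 6.78.

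Among receptors and signal inhibitors of the adipokines, 4 of 13 probes from 11 genes were called lower after estradiol and 0 higher, beside 10.1% and 10.4% of all tested probes. Aplnr, the apelin receptor, fell by 0.81 ± 0.18 (adjusted p = 0.00055), and by 0.70 ± 0.18 after testosterone (adjusted p = 0.012). Cdh13, T-cadherin, which binds adiponectin, fell by 0.76 ± 0.17 after estradiol (adjusted p = 0.00084). Socs3, an inhibitor of leptin signalling, differed by -0.44 ± 0.13 with Sry (adjusted p = 0.028). Aplnr and Cdh13 fell together with endothelial markers, of which Cdh5, VE-cadherin, fell by 1.21.

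Of the adipocyte transcription factors and adiponectin assembly genes 2 of 16 probes were called lower after estradiol and 0 higher, a share near the 10.1% of all tested probes called lower. These were Zfp423, at -0.55 ± 0.17, and Gstk1, whose product helps adiponectin form multimers, at -0.39 ± 0.14. With Sry, Cebpa, which drives adipocyte genes, was higher by 0.69 ± 0.22 (adjusted p = 0.037) and Klf15 by 0.47 ± 0.13 (adjusted p = 0.019). No other probe of this list was called for the gonad line. Mammary markers fell in the same comparison, and with mammary scores among the covariates 0 of 14636 probes were called for the gonad line.

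Among 40 probes of 32 other secreted adipose proteins, 14 were called higher and 7 lower after estradiol, and 4 higher and 1 lower after testosterone. Over all tested probes 10.4% were called higher and 10.1% lower after estradiol, and 2.16% and 2.59% after testosterone. Hp, haptoglobin, rose by 3.01 ± 0.16 after testosterone and by 2.26 ± 0.16 after estradiol, from 10.56 ± 0.44 (SD, n = 17) in blank arrays. Nrg4, a factor secreted by brown and beige fat, fell by 1.02 ± 0.16 after estradiol, in the same arrays in which 4 of 5 brown adipocyte markers were called lower. Vegfa fell by 0.83 ± 0.12. Agt, angiotensinogen, rose by 2.22 ± 0.39 after testosterone. Lcn2, lipocalin 2, differed by -3.07 ± 0.30 with Sry, alongside the mammary markers.

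In the pathways of Rbp4, Cfd and Nampt the counts stand beside 20.5% of all tested probes called in either direction after estradiol, and those of the retinoid and NAD lists were near that share. Of 15 retinoid probes 2 were called higher and 1 lower after estradiol. Crabp2, which binds retinoic acid inside cells, rose by 0.63 ± 0.16, and Aldh1a7 fell by 0.94 ± 0.20. Of 6 alternative complement probes 3 were called higher and 1 lower, among them Cfp, properdin, at 0.64 ± 0.13 and Cfb, the substrate of Cfd, at 0.57 ± 0.17. Of 14 probes of NAD metabolism 1 was called higher and 2 lower, with Qprt at 0.69 ± 0.24 and Nnmt, which methylates nicotinamide, at -0.32 ± 0.09. The Nnmt value is that of probe ILMN_2885277, and another tested Nnmt probe, ILMN_2665411, was not called for estradiol.

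The estrogen-responsive genes Greb1 and Pgr rose with estradiol by 3.30 ± 0.15 and 0.87 ± 0.12. Esr1, which encodes estrogen receptor alpha, fell by 0.83 ± 0.18 after estradiol and by 0.77 ± 0.18 after testosterone. These values are averages over the treatment arms, measured on the same arrays as the adipokines. They do not check the label of any single array, XX E replicate 1 included.

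The genes most like each member over the 55 arrays were named by Pearson r, as a description. Lep was nearest to Npr3 (r = 0.86), Nnat (0.85) and Prelp (0.81), and with group and slide means removed these were 0.77, 0.84 and 0.80. Rbp4 was nearest to Aldh1a7 (0.87), Car4 (0.85) and H2-Q10 (0.84), with 0.82, 0.61 and 0.76 after that removal. Retn was nearest to Pex19 (0.79), Adipoq to Ywhab (0.80), Cfd to Smad2 (0.69) and Nampt to Zfand6 (0.87), with 0.70, 0.76, 0.55 and 0.56 after the same removal. These arrays share slides, dissection and tissue make-up.

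Liver held only part of this list. Rbp4 was detected on 60 of 60 liver arrays, Nampt on 58, Lep on 21 and Cfd on 9, while Adipoq, Retn and Apln were detected on 0 arrays. Liver Rbp4 had medians of 11.28 in blank, 11.51 in testosterone and 11.14 in estradiol arrays, each over 20 arrays. Estradiol minus blank was -0.24 ± 0.09 and missed the threshold (limma, adjusted p = 0.110), while it passed with slide as a fixed block (-0.32, adjusted p = 0.047) and with median centring (-0.43, adjusted p = 0.018). In the fit without a block 6.82% of 11317 tested liver probes were called for estradiol, and testosterone minus blank was 0.11 ± 0.09 (adjusted p = 0.441). Testosterone minus estradiol was 0.35 ± 0.09 and passed (adjusted p = 0.0040), where 7.78% of tested probes were called higher.

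Liver Nampt fell by 0.37 ± 0.13 after testosterone (limma, adjusted p = 0.031), where 10.9% of tested probes were called lower and 19.1% in either direction. Its blank arrays had a median of 6.58 and ran from 5.54 to 7.30, and its testosterone arrays had a median of 6.16 and ran from 5.53 to 6.84. The ranges overlapped, and with slide as a fixed block the call was lost (adjusted p = 0.120). Testosterone minus estradiol was -0.37 ± 0.13 (limma, adjusted p = 0.033), where 10.6% of tested probes were called lower. That call was lost with slide as a fixed block and with median centring. Levels of liver and adipose arrays were normalised apart and are not set against each other.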

How the data were processed

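RNA of inguinal adipose tissue (55 arrays) and liver (60 arrays) was measured on 1-colour Illumina BeadChips. The deposited tables hold a signal intensity and a detection p-value for each probe and array, per the file headers, not yet normalised between arrays. The 55 and 60 columns of bead error were not used. The submitters' processing notes name lumi, and its settings are not given in the sources used here.

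Each tissue was processed apart with limma 3.58.1 in R 4.3.3: normexp background correction from the detection p-values, an offset of 16, quantile normalisation and log2 (neqc). The offset understates differences of dim probes. Probes with a detection p-value under 0.01 on as many arrays as the smallest group (3 in adipose, 5 in liver) were tested, 14636 and 11317 in number. A model with a mean for each of 12 groups gave the contrasts, which weight groups equally, and p-values were adjusted over all tested probes by Benjamini-Hochberg. A call is an adjusted p under 0.05. The code was tested on simulated data. Intervals cover 95%.

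Groups came from the sample titles and labels. The text names all adipokine probes, up to 2 called rises and 2 called falls of largest size per list and contrast, and for each adipokine the genes of highest r. The adipokines and lists were chosen with earlier results of these data known. Alternatives were median centring, no background correction, an offset of 50, no probe filter, slide as a block, array weights, marker scores as covariates, the other reading of XX E replicate 1 or its removal, and each adipose array left out in turn. The score fits without mammary markers and with macrophage markers were added after the data were seen. Older array symbols were matched to current ones through RefSeq names. A named result of the retinoid list is not reported here.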

Additional observations from a re-analysis of the deposited data

Results flagged for a closer look

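Among 66 sets of an adipokine and a group, 5 held an array far from the rest by Dixon's criterion, and chance marks about 1 in 20 such sets. Rbp4 read 11.04 in XY-Sry T replicate 1, with the other arrays of the group between 7.50 and 8.49, and that array also had the highest summed liver marker signal of the adipose set, 98258. Rbp4 read 9.24 in XXSry E replicate 2, with the others between 6.95 and 7.25, and there the liver marker sum was 459. Rbp4 read 8.35 in XX T replicate 2, against 7.42 to 7.56. Retn read 7.53 in XY- T replicate 4, against 6.95 to 7.10. Nampt read 8.24 in XY-Sry B replicate 1, against 6.58 to 6.78.

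The estradiol effect on Lep differed between the gonad lines by 1.54 (testis line minus ovary line), by the interaction test given with the results. The cause was not tested.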

How the results depend on the processing

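Over 12 alternatives, the fall of Rbp4 with estradiol (-2.10 to -1.17) and the fall of Lep with estradiol in the ovary line (-1.30 to -1.06) stayed called. Called liver values, fitted under 3 alternatives of their own, are counted here with the adipose values. Of the called values 122 kept direction and call, 30 lost the call and 1 turned sign. With an adipose array left out 582 kept both and 78 lost the call. The causes were not tested.

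The number of adipokine probes called for estradiol was 1 with median centring and 1 with macrophage and preadipocyte scores. For the gonad line it was 1 with an offset of 50, 1 without the probe filter, 4 with slide as a fixed block, 1 with muscle, lymph node and liver scores and 0 with mammary scores added. For testosterone it was 1 with array weights and 1 with either tissue score set, and for sex chromosomes 1 with array weights. In the testis line estradiol gave 2 with array weights, 2 with either tissue score set and 0 with macrophage scores, which left 1 in the ovary line and 0 between hormones. The interactions held 0 with mammary and 0 with macrophage scores. In liver 2 hormone contrasts were called with median centring. With an array left out the gonad count ran from 1 to 3 and the testosterone count from 0 to 1.

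Some signs turned, among them those of Rbp4 and Nampt for gonad line and of Retn with estradiol in the ovary line. Cfd with testosterone was 0.025 with median centring, 0.029 and 0.0039 with slide as fixed and random block, 0.021 with array weights and 0.016 with macrophage scores. Nampt with estradiol was 0.017 with median centring and 0.059 with macrophage scores, and 0.042 in liver without the 2 arrays that lay apart. With the 4 tissue scores Lep was -0.069 with testosterone and -0.0054 with estradiol in the testis line, Rbp4 was -0.0029 for gonad line, -0.034 for sex chromosomes and -0.088 for estradiol by gonad line, and Nampt was -0.026 for gonad line. With 3 tissue scores Lep with testosterone was -0.085 and Rbp4 for sex chromosomes -0.052. With macrophage scores Lep was -0.098 with testosterone and -0.082 with estradiol in the testis line, Rbp4 and Retn for sex chromosomes were -0.016 and -0.032, and Retn with estradiol in the ovary line was 0.17. With an array left out Cfd ran from -0.025 to 0.023 with testosterone and from -0.032 to 0.0014 for sex chromosomes, Lep with testosterone from -0.010 to 0.097, Nampt with estradiol from -0.22 to 0.071, and Retn for estradiol by gonad line from -0.15 to 0.087. The turns came without XY- B replicate 4 for Lep and XX B replicate 1 for Nampt.

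Over all probes 306 were called for testosterone with median centring, 256 with slide as a fixed block, 1064 with array weights, 1159 with 4 tissue scores, 1151 with 3 and 1638 with macrophage scores, against 695. Estradiol gave 1936 with median centring against 3003. Median centring also gave 1630 between hormones against 2536, and macrophage scores 1179. The gonad line gave 0 with mammary and 1843 with macrophage scores against 1075, and sex chromosomes 1148 with array weights and 31 to 65 without 1 of 3 arrays, against 20. Median centring moved the share called higher from 35.8% to 23.4% for gonad line, from 44.8% to 32.2% between hormones and from 65% to 53.3% for sex chromosomes. Averaging probes of a gene gave nothing different, since each tested adipokine had 1 tested probe. No paired analysis was possible because the labels carry no replicate numbers.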

Other observations

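Over the 55 adipose arrays 15 pairs of adipokines were compared after group means were removed. Of these pairs 7 passed an adjusted p of 0.05 by both coefficients (permutation test). The permutations ran over all arrays without regard to slide, so these p-values do not separate a relation between genes from a shared slide. Rbp4 and Nampt were related with Pearson r = 0.60 and Spearman rho = 0.67, each at a permutation p of 1e-05, the smallest that 1e+05 permutations can give (adjusted p = 0.00015). Without the 2 arrays farthest from the median r was 0.65, and with slide means removed as well as group means it was 0.10. Adipoq and Rbp4 had r = 0.53 and rho = 0.51 (permutation test, adjusted p = 0.00015 and 0.00075), with 0.48 and 0.38 after the same steps. Lep and Adipoq had r = 0.37 and rho = 0.37 (permutation test, adjusted p = 0.013 and 0.017), with 0.38 and 0.46 after those steps. The other passing pairs had r = 0.51 for Rbp4 and Cfd, 0.48 for Adipoq and Nampt, 0.48 for Cfd and Nampt and 0.33 for Adipoq and Cfd, with 0.35, 0.23, 0.17 and 0.31 after group and slide means were removed. The arrays share slides and tissue make-up.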
